A study of Mus musculus with 48 samples.

Results

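MHC class II presentation was followed through 10 genes in airspace macrophages of the mouse. They encode both chains of the class II molecule I-A (H2-Aa and H2-Ab1) and the beta chain of I-E (H2-Eb1). Next come the invariant chain (Cd74) and the class II transactivator (Ciita). The others encode the peptide-exchange factor H2-DM (H2-DMa, H2-DMb1 and H2-DMb2) and its inhibitor H2-DO (H2-Oa and H2-Ob). The genes were taken by name, with no measured value in the rule, and are 10 of the 24411 genes of the count table. All 10 passed the filter on low counts and are among the 12634 genes tested. RNA came from lavage macrophages of 24 male mice, with 3 mice in each of 8 groups. Siglec F KO mice (KO) lack Siglec-F, the product of Siglecf, which sits on alveolar macrophages and binds sialic acids, and Wild Type mice (WT) carry it. KO mice were naive or were sampled at day 7, 14 or 21 after bleomycin, an agent that injures the lung and is used to model fibrosis, and WT mice were naive or were sampled at the same 3 days. Bleomycin was given, per the labels, at 2.5 units/kg by the route written as IT, and the naive mice are labelled as saline controls at day 0. The series asks what Siglec-F does in these cells as fibrosis develops. No source used here gives the strain, the age of the mice, the make of the KO allele or the way the macrophages were separated from other lavage cells.

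8 of the genes lie within the MHC on chromosome 17 of mm10. H2-Oa is at chr17:34092340-34095234 (plus strand), H2-DMa at chr17:34119541-34139101 (plus strand), H2-DMb2 at chr17:34143307-34151555 (plus strand), H2-DMb1 at chr17:34153072-34160230 (plus strand) and H2-Ob at chr17:34238903-34254414 (plus strand). H2-Ab1 is at chr17:34257689-34269419 (plus strand), H2-Aa at chr17:34282744-34287823 (minus strand) and H2-Eb1 at chr17:34305867-34316674 (plus strand). Ciita is at chr16:10480059-10528418 (plus strand) and Cd74 at chr18:60803848-60812652 (plus strand). In GENCODE M21, exons of Ciita, H2-DMa and H2-Oa overlap those of Dexi, Brd2 and BC051537 on the opposite strand, and Cd74 overlaps Mir5107 on its own strand. No source used here says whether counting used strand, so a part of these counts may belong to the partner. H2-DMb1 and H2-DMb2 are near copies, sharing 11.3% of the 100-base words of H2-DMb1 transcripts and 10.3% of those of H2-DMb2, so reads may have been split between them.

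Class II molecules display peptides from endocytosed protein to CD4+ T cells. The alpha and beta chains assemble with the invariant chain, which blocks the groove and guides the complex to endosomes, where proteases trim it, H2-DM releases the remaining fragment and stabilises the molecule while peptides are exchanged, and H2-DO restrains H2-DM. Transcription of these genes depends on promoter-bound complexes, including RFX and NF-Y, that recruit CIITA, and interferon gamma induces Ciita in macrophages. Resident alveolar macrophages of the mouse are known for low class II, whereas macrophages that descend from monocytes and dendritic cells carry more.

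Promoter sequence is shown because most of these genes moved together in the results that follow. The RefSeq promoter table (GRCm38.p6) held 8 windows for 7 of the genes, H2-Aa, H2-Eb1, H2-DMa with 2 windows, H2-DMb1, H2-DMb2, H2-Oa and H2-Ob. Each stretch printed is 130 bases long, reads 5′ to 3′ on the gene's own strand and runs from base -150 to base -21 relative to the annotated start. Capitals mark TGATTGG, a Y box core of the kind NF-Y binds, and, upstream of it where present, the X box pattern TANNAACNNATGATGC. In these 4 genes the X box pattern and TGATTGG lie in the same order and orientation:
H2-Eb1: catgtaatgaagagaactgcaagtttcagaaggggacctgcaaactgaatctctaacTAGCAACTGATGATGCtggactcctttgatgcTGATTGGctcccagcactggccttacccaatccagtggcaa
H2-Ob: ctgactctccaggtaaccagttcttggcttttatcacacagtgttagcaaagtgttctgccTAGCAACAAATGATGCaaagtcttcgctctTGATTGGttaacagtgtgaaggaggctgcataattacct
H2-DMb1: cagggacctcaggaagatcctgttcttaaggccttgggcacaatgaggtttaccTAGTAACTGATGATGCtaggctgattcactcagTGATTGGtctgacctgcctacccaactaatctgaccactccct
H2-DMb2: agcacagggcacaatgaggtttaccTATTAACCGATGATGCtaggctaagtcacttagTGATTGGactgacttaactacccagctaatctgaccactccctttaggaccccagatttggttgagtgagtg
and in the following pair the capitals mark TGATTGG alone:
H2-Aa: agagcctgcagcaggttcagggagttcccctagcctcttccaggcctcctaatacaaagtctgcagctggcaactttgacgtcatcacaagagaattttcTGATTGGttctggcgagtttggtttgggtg
H2-Oa: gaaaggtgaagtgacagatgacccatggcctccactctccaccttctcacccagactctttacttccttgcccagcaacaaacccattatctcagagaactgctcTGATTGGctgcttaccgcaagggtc

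The H2-Eb1 stretch is chr17:34305717-34305846, that of H2-Ob chr17:34238755-34238884, that of H2-DMb1 chr17:34153041-34153170 and that of H2-DMb2 chr17:34145099-34145228, all on the plus strand. The H2-Aa stretch is chr17:34287844-34287973 on the minus strand and that of H2-Oa chr17:34092229-34092358 on the plus strand. TGATTGG begins at base -50 in H2-Aa, -61 in H2-Eb1, -63 in H2-DMb1, -92 in H2-DMb2, -45 in H2-Oa and -59 in H2-Ob. Searched on both strands over the 250 bases before each start, TGATTGG was in 7.23% of the 32851 promoters of the table. The X box pattern is the set of letters that 4 of the genes share there, so their match is by construction. It overlaps no Y box match and was in 4 promoters (0.0122%), those of H2-Eb1, H2-DMb1, H2-DMb2 and H2-Ob. The letters of neither motif are in the 2 H2-DMa windows. A match is a description of the sequence and not a measured binding site.

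Library totals ran from 24877049 to 47457085 counts per mouse. Siglecf had 0 to 25 counts in the 12 KO libraries, against 2631 to 20368 counts in the 12 WT libraries. Chil3, a marker of resident alveolar macrophages, averaged 18417 CPM in naive KO mice and 17068 CPM in naive WT mice (CPM, counts per 1000000 of the TMM-scaled library total). On the first principal component of all tested genes, which held 57.5% of the variance, the 18 bleomycin mice lay between -20.4 and 38.7 and the 6 naive mice between -59.2 and -54.0. KO day 21 mouse 1 (-20.4), KO day 14 mouse 3 (-15.8) and KO day 14 mouse 2 (1.63) were the bleomycin mice nearest the naive ones, and the bleomycin responses of the KO mice are given below without them.

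Per kilobase of exon, Cd74 was the most abundant of the 10 genes in each of the 8 groups. In naive KO mice, Cd74 averaged 837 CPM per kb, ahead of H2-Ab1 at 128, H2-DMb1 at 96.3, H2-DMa at 86.7, H2-Aa at 84.6 and H2-Eb1 at 78.9 CPM per kb. Naive WT mice averaged 815 CPM per kb of Cd74, 130.3 of H2-Ab1, 104 of H2-DMa, 96.6 of H2-DMb1, 87.0 of H2-Aa and 72.8 of H2-Eb1. H2-Ab1, H2-Aa, H2-Eb1, H2-DMa and H2-DMb1 were of like level in naive mice. From H2-Ab1 down each of them differed from the next by less than the spread between mice. The length is the union of all annotated exons, so a gene with long minor transcripts reads low on this scale. The scarce members were H2-DMb2, H2-Oa, Ciita and H2-Ob, at 3.86, 2.30, 1.46 and 0.0114 CPM per kb in naive KO mice. In naive WT mice they were at 4.80, 1.88, 0.953 and 0 CPM per kb.

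At day 7 after bleomycin, the genes for the antigen-presenting chains and the invariant chain were 3.15 to 7.00 times their naive level in KO mice and 3.35 to 8.18 times in WT mice. Of the 10 genes, 6 rose and 0 fell in KO mice, where 19.7% of all tested genes rose and 14.4% fell. In WT mice 7 rose and 0 fell, where 20.2% rose and 15.3% fell (edgeR quasi-likelihood test, Benjamini-Hochberg adjusted p under 0.05). The genes that rose in both were H2-Aa, H2-Ab1, H2-Eb1, Cd74, H2-DMb1 and H2-Ob, and Ciita passed in WT mice. The median log2 fold change of the 10 genes was 1.39 in KO mice, against 0.022 over all tested genes, and 1.89 in WT mice, against 0.022 over all tested genes. Because these are bulk libraries, more cells of a class II-rich type and more RNA per cell cannot be told apart in any of these results.

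H2-Eb1, the I-E beta chain, had 1306, 1175 and 736 CPM in the 3 KO mice at day 7, against 77.1, 212 and 170.5 CPM in naive KO mice. WT mice had 1325, 1033 and 1111 CPM at day 7, against 218, 119.7 and 86.8 CPM in naive WT mice. No day 7 mouse of either genotype overlapped a naive one. The share of all tested genes without overlap between bleomycin and naive mice is not given here. Such separations, here and below, are therefore descriptions only. The log2 fold change of H2-Eb1 was 2.81 ± 0.50 (SE, edgeR adjusted p = 0.00037) in KO mice. It was 3.03 ± 0.50 (SE, edgeR adjusted p = 0.000195) in WT mice, the largest rise of the abundant members.

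H2-Ab1, the I-A beta chain, stood at 1736, 1615 and 1002 CPM in day 7 KO mice, against 163, 443 and 379.6 CPM in naive KO mice. The log2 fold change was 2.14 ± 0.47 (edgeR adjusted p = 0.0018). In WT mice it stood at 1871, 1470.5 and 1607 CPM at day 7, against 521, 279 and 203 CPM in naive mice. H2-Ab1 rose there by 2.30 ± 0.47 (edgeR adjusted p = 0.001). Its partner H2-Aa, the I-A alpha chain, rose by 2.00 ± 0.47 on the log2 scale in KO mice (edgeR adjusted p = 0.0034) and by 2.06 ± 0.47 in WT mice (edgeR adjusted p = 0.00263). The alpha and beta chain of I-A were close to matched in counts throughout, with 79.1 to 105 H2-Aa counts per 100 H2-Ab1 counts over the 24 mice.

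Cd74, whose product chaperones new class II molecules, had 5263, 4596 and 3428 CPM in day 7 KO mice, against 765, 1890.3 and 1559.9 CPM in naive KO mice. WT mice had 4759.6, 4462 and 4547 CPM of Cd74 at day 7, against 1981, 1209.6 and 915 CPM in naive mice. The 3 WT day 7 mice lay within 1.07-fold of each other, the narrowest spread of Cd74 in the 8 groups, and in both genotypes the lowest day 7 mouse was above the highest naive one. Cd74 rose by 1.66 ± 0.39 in KO mice (edgeR adjusted p = 0.00296) and by 1.75 ± 0.39 in WT mice (edgeR adjusted p = 0.00193) on the log2 scale.

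Together, H2-Aa, H2-Ab1, H2-Eb1 and Cd74 made up 0.233 ± 0.0996% of all counts in naive KO mice, 0.855 ± 0.199% at day 7, 0.378 ± 0.190% at day 14 and 0.879 ± 0.405% at day 21. In WT mice the share was 0.221 ± 0.0828% in naive mice, 0.888 ± 0.0205% at day 7, 0.514 ± 0.185% at day 14 and 0.496 ± 0.179% at day 21 (mean ± SD, n = 3 each).

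**Figure D1:**
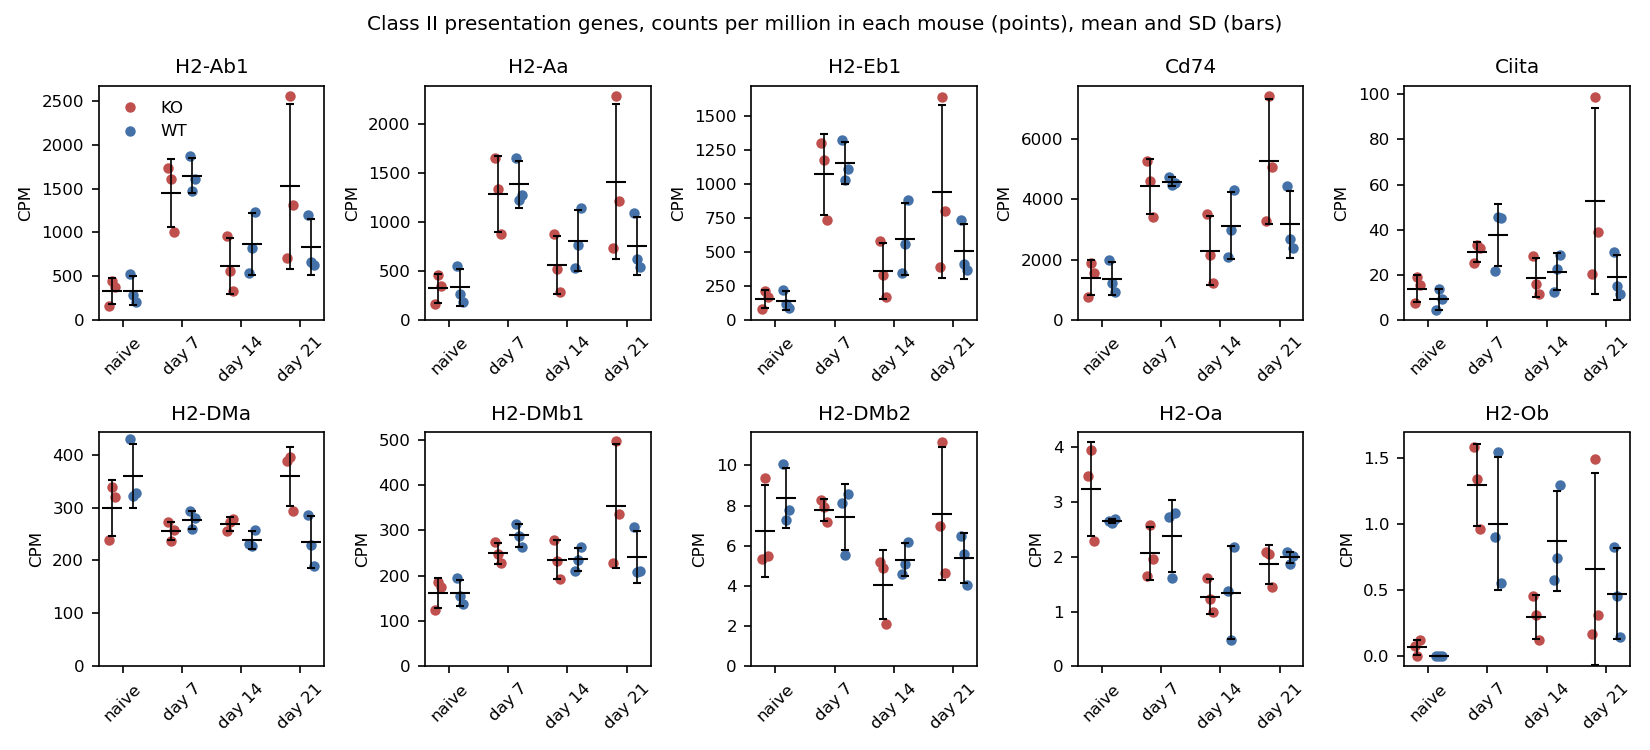
Level of each of the 10 genes in CPM (vertical axis, linear) in every mouse by time, with KO mice in red to the left of WT mice in blue, and the mean and SD of the 3 mice of each group in black. H2-Ab1, H2-Aa, H2-Eb1 and Cd74 stood above their naive level in every day 7 mouse of both genotypes, and KO day 21 held both the highest mouse of these 4 genes and, for H2-Ab1, a mouse as low as 705 CPM.

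Ciita, the transactivator of the class II genes, had 25.2, 33.2 and 32.0 CPM in day 7 KO mice, against 7.40, 19.0 and 15.3 CPM in naive KO mice. Its log2 fold change there was 1.12 ± 0.52 (edgeR adjusted p = 0.106), which missed the threshold although the mice of the groups did not overlap, and a fit of these 2 groups alone called it (edgeR adjusted p = 0.0128). WT mice had 21.6, 45.5 and 45.4 CPM at day 7, against 4.47, 13.5 and 9.26 CPM in naive mice. Ciita rose by 2.04 ± 0.52 (edgeR adjusted p = 0.00586). The difference between the KO and WT responses of Ciita at day 7 was -0.92, with a 95% interval of -2.48 to 0.64, and was not called (edgeR adjusted p = 1).

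The H2-DM genes did not move together. H2-DMb1, the main beta chain, had 274, 248 and 228 CPM in day 7 KO mice, against 125, 186 and 175 CPM in naive KO mice. H2-DMb1 rose by 0.63 ± 0.22 on the log2 scale (edgeR adjusted p = 0.0344). That KO call was lost without naive mouse 1 or 3 or day 7 mouse 1 or 2, with an adjusted p of up to 0.16 for H2-DMb1 in edgeR. In WT mice H2-DMb1 had 315, 288 and 264 CPM at day 7, against 194, 155 and 138 CPM in naive mice. H2-DMb1 rose by 0.83 ± 0.22 (edgeR adjusted p = 0.00636).

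H2-DMa, the alpha chain of the same dimer, had 272, 238 and 257 CPM in day 7 KO mice, against 239, 338 and 319 CPM in naive KO mice. The log2 fold change was -0.23 ± 0.15 (edgeR adjusted p = 0.259). WT mice had 293, 259 and 279 CPM at day 7, against 429.6, 321 and 327 CPM in naive mice. On the log2 scale it differed by -0.38 ± 0.15 (edgeR adjusted p = 0.0565). All 3 WT day 7 mice were below all 3 naive ones, but neither change was called. H2-DMb2, the less abundant beta chain, had log2 fold changes of 0.21 in KO mice and -0.17 in WT mice at day 7 (edgeR adjusted p = 0.645 and 0.707), and with the counts of both beta chain genes summed the rise was 0.61 in KO mice and 0.80 in WT mice (edgeR adjusted p = 0.0379 and 0.00837).

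H2-Ob and H2-Oa, the beta and alpha chain of H2-DO, also parted. H2-Ob had 61, 51 and 35 counts in day 7 KO libraries, against 3, 0 and 5 counts in naive KO libraries. It rose by 4.32 ± 0.98 on the log2 scale (edgeR adjusted p = 0.00226), and by 3.77 to 5.08 over 14 alternative fits, with 5.08 without naive mouse 3. In WT mice it had 28, 70 and 20 counts at day 7, against 0 counts in each of the 3 naive libraries, so it was at least 36.9-fold higher when 3 counts are set as the most that the naive group could hold (edgeR adjusted p = 0.000304). Even so, H2-Ob reached no more than 1.59 CPM in any mouse. H2-Oa had 1.64, 2.58 and 1.96 CPM in day 7 KO mice, against 3.47, 3.94 and 2.29 CPM in naive KO mice. Its level was 2.71, 1.62 and 2.79 CPM in day 7 WT mice, against 2.64, 2.61 and 2.69 CPM in naive WT mice. Neither difference of H2-Oa was called (edgeR adjusted p = 0.186 in KO and 0.771 in WT mice).

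At day 14 none of the 10 genes was higher than naive by the test in KO mice, and in WT mice the class II chains were still called. In KO mice 0 genes rose and 1 (H2-Oa) fell, where 12.0% of all tested genes rose and 4.84% fell. In WT mice 5 rose (H2-Aa, H2-Ab1, H2-Eb1, Cd74 and H2-Ob) and 1 (H2-DMa) fell, where 18.7% of all tested genes rose and 13.4% fell. The median log2 fold change of the 10 genes was 0.63 in KO mice, against 0.0055 over all tested genes, and 1.21 in WT mice, against -0.0028 over all tested genes. The median in each WT comparison is the same with H2-Ob set at its lower bound.

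H2-Eb1 had 579, 329.7 and 169.5 CPM in day 14 KO mice, against 77.1, 212 and 170.5 CPM in naive KO mice. WT mice had 347, 559.9 and 880.2 CPM at day 14, against 218, 119.7 and 86.8 CPM in naive WT mice. KO mouse 3 lay inside the naive range, and the other KO mice and all WT mice lay above it. The log2 fold change was 1.23 ± 0.50 in KO mice (edgeR adjusted p = 0.103, or 0.0403 without KO day 14 mouse 3). In WT mice it was 2.08 ± 0.50 (edgeR adjusted p = 0.00436). For Cd74 the values were 3515, 2168 and 1222 CPM in day 14 KO mice, against 765, 1890.3 and 1559.9 CPM in naive KO mice. They were 2099, 2977 and 4304 CPM in day 14 WT mice, against 1981, 1209.6 and 915 CPM in naive WT mice. Its log2 fold change was 0.71 ± 0.39 in KO mice (edgeR adjusted p = 0.234) and 1.19 ± 0.39 in WT mice (edgeR adjusted p = 0.0257).

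Without KO day 14 mouse 2, the log2 fold change in KO mice was 1.28 for H2-Eb1, 0.97 for H2-Ab1, 0.75 for Cd74 and 0.52 for Ciita. Without KO day 14 mouse 3 it was 1.57 for H2-Eb1, 1.21 for H2-Ab1, 1.02 for Cd74 and 0.67 for Ciita, and H2-Eb1 alone of the 10 genes was then called higher by edgeR. A fit of the naive and day 14 WT mice alone called 9 of the 10 genes, adding Ciita and H2-DMb1 above naive and H2-DMb2 below it (edgeR adjusted p of 0.0491, 0.0208 and 0.0373).

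The WT calls of H2-Ab1 and H2-Aa at day 14 were lost without WT naive mouse 2 or 3 or WT day 14 mouse 2 or 3, with log2 fold changes down to 1.02 for H2-Ab1 and 0.96 for H2-Aa. That of Cd74 was lost without WT naive mouse 2 or 3 or day 14 mouse 3, at 0.89 or more, while H2-Eb1, H2-Ob and H2-DMa were called in each of these fits. H2-DMa had 255, 273 and 279 CPM in day 14 KO mice, against 239, 338 and 319 CPM in naive KO mice. On the log2 scale it differed by -0.15 ± 0.15 (edgeR adjusted p = 0.546). It had 230.3, 227 and 258 CPM in day 14 WT mice, against 429.6, 321 and 327 CPM in naive WT mice. It fell by 0.59 ± 0.15 on the log2 scale (edgeR adjusted p = 0.00497), with every day 14 mouse below every naive mouse.

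H2-Oa had 1.60, 1.23 and 0.987 CPM in day 14 KO mice, against 3.47, 3.94 and 2.29 CPM in naive KO mice. It fell by 1.35 ± 0.38 on the log2 scale (edgeR adjusted p = 0.0183). That call rests on 33 to 39 counts per day 14 library and was lost without KO naive mouse 1 or 2 or KO day 14 mouse 2 or 3, with an edgeR adjusted p of up to 0.0809 for H2-Oa. WT mice had 1.37, 0.482 and 2.19 CPM of H2-Oa at day 14, against 2.64, 2.61 and 2.69 CPM in naive mice. The log2 fold change was -0.97 ± 0.38 and just missed the threshold (edgeR adjusted p = 0.0556), while DESeq2 and limma-voom called it. H2-Ob had 11, 9 and 4 counts in day 14 KO libraries and 21, 23 and 51 counts in day 14 WT libraries, which was at least 32.0-fold above the naive WT group (edgeR adjusted p = 0.000471).

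At day 21 most of the 10 genes were called above naive in KO mice. Day 14 was not tested against day 7 or day 21. In KO mice 7 of the 10 genes rose and 0 fell, where 15.0% of all tested genes rose and 6.89% fell. In WT mice 4 rose (H2-Ab1, H2-Eb1, Cd74 and H2-Ob) and 1 (H2-DMa) fell, where 18.8% of all tested genes rose and 13.7% fell. The 7 genes of KO mice were H2-Aa, H2-Ab1, H2-Eb1, Cd74, Ciita, H2-DMb1 and H2-Ob. The median log2 fold change of the 10 genes was 1.91 in KO mice, against 0.011 over all tested genes, and 1.11 in WT mice, against 0.0021 over all tested genes.

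H2-Ab1 had 705, 2554 and 1318 CPM in day 21 KO mice, against 163, 443 and 379.6 CPM in naive KO mice. H2-Ab1 rose by 2.22 ± 0.47 on the log2 scale (edgeR adjusted p = 0.00243). WT mice had 1197, 662 and 628 CPM at day 21, against 521, 279 and 203 CPM in naive mice. H2-Ab1 rose by 1.31 ± 0.47 (edgeR adjusted p = 0.039). The KO mice spanned 3.62-fold, with mouse 2 the highest of all 24 mice, and the WT mice 1.90-fold. Without KO day 21 mouse 2 the KO rise was 1.62 for H2-Ab1 and 1.96 for H2-Eb1, each still called by edgeR. Without KO day 21 mouse 1 the same 7 genes were called, at 2.56 for H2-Ab1, 2.99 for H2-Eb1, 2.44 for H2-Aa and 2.15 for Cd74.

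H2-Eb1 rose by 2.62 ± 0.50 in KO mice (edgeR adjusted p = 0.00117) and by 1.84 ± 0.50 in WT mice (edgeR adjusted p = 0.0094) at day 21. H2-Aa rose by 2.13 ± 0.47 in KO mice (edgeR adjusted p = 0.00371), against a log2 fold change of 1.19 ± 0.47 in WT mice that was not called (edgeR adjusted p = 0.0632). That WT value was called by limma-voom (adjusted p = 0.0461) and by edgeR without WT naive mouse 1 (adjusted p = 0.0174). Cd74 rose by 1.90 ± 0.39 in KO mice (edgeR adjusted p = 0.00178) and by 1.21 ± 0.39 in WT mice (edgeR adjusted p = 0.0231). Those of the WT calls that were lost without 1 mouse were H2-Ab1 and Cd74, without WT naive mouse 2 or 3 or WT day 21 mouse 1, and H2-Eb1, without WT naive mouse 3 or WT day 21 mouse 1, with log2 fold changes down to 0.95 for H2-Ab1, 0.88 for Cd74 and 1.46 for H2-Eb1.

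Ciita had 20.3, 99.0 and 39.0 CPM in day 21 KO mice, against 7.40, 19.0 and 15.3 CPM in naive KO mice. Ciita rose by 1.92 ± 0.52 (edgeR adjusted p = 0.0129). This call of Ciita was lost without KO naive mouse 1 or KO day 21 mouse 2, where the log2 fold change was 1.62 and 1.09, and in a fit of these 2 groups alone. WT mice had 30.1, 15.1 and 11.3 CPM at day 21, against 4.47, 13.5 and 9.26 CPM in naive mice. Ciita had a log2 fold change of 1.04 ± 0.53 (edgeR adjusted p = 0.14). H2-DMb1 rose by 1.13 ± 0.22 in KO mice (edgeR adjusted p = 0.00106), against 0.57 ± 0.22 in WT mice, which was not called (edgeR adjusted p = 0.0533). Fits of only the groups compared turned this round, with an edgeR adjusted p of 0.0503 for H2-DMb1 in KO mice and 0.0392 in WT mice. DESeq2 called the WT rise of H2-DMb1 as well (adjusted p = 0.0302), as did edgeR without WT naive mouse 1 or WT day 21 mouse 2.

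H2-DMa had 387, 396 and 294 CPM in day 21 KO mice, against 239, 338 and 319 CPM in naive KO mice. The log2 fold change was 0.26 ± 0.15 and was not called (edgeR adjusted p = 0.225). In WT mice it had 286, 229 and 189.9 CPM at day 21, against 429.6, 321 and 327 CPM in naive mice. It fell by 0.61 ± 0.15 (edgeR adjusted p = 0.00381), a call that held without each mouse in turn. H2-Ob had 6, 49 and 12 counts in day 21 KO libraries, with 49 of them in mouse 2. Its KO log2 fold change was 3.32 ± 0.99 (edgeR adjusted p = 0.0194). That call was lost with limma-voom, without KO naive mouse 1 or 2 and without KO day 21 mouse 2, where the value was 1.88. H2-Ob had 25, 13 and 4 counts in day 21 WT libraries, at least 17.3-fold above the naive WT group (edgeR adjusted p = 0.00153).

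**Figure D2:**
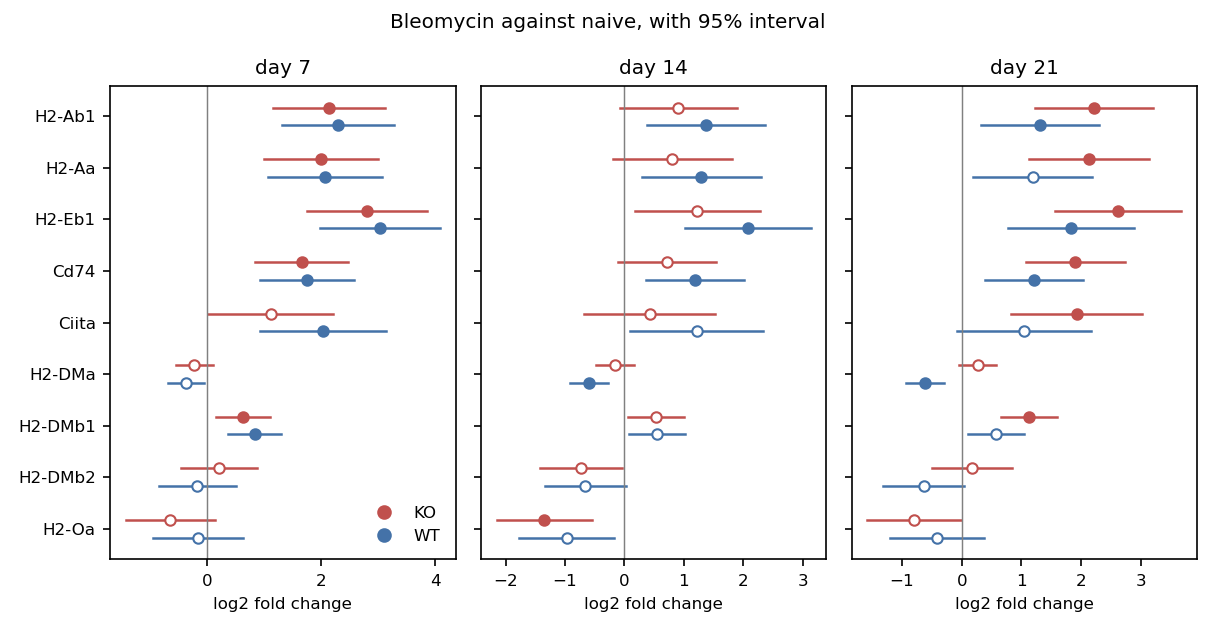
Log2 fold change of bleomycin against naive mice (horizontal axis) for 9 of the genes at day 7, 14 and 21, with KO in red above WT in blue, lines for the 95% interval and filled points for an edgeR adjusted p under 0.05. H2-Ob is left out because it had 0 counts in naive WT mice. H2-Eb1 had the largest value in both genotypes at each day, and H2-DMa was below 0 and called in WT mice at days 14 and 21.

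Set against day 7, the median of the 10 genes at day 21 was slightly higher in KO mice and lower in WT mice, and whether this change differed between the genotypes was not tested. In KO mice 6 of 10 log2 differences were positive with a median of 0.10, and 1 gene was called, H2-DMa, which was higher at day 21 by 0.49 ± 0.15 (edgeR adjusted p = 0.0311), where 7.16% of all tested genes were higher and 7.73% lower. This H2-DMa call was lost without any 1 of the 3 day 7 mice or without day 21 mouse 1 or 2, with an adjusted p of up to 0.112, and in a fit of these 2 groups alone. In WT mice all 10 were negative with a median of -0.71, against 0.0027 over all tested genes, but 0 passed edgeR's adjusted threshold, where 6.15% of all tested genes were lower, and 2 (H2-Ab1 and H2-Eb1) had an unadjusted p under 0.05. DESeq2 and limma-voom also called 0, and a fit of the day 7 and day 21 WT mice alone called 3.

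No gene of the 10 differed between KO and WT mice by edgeR at any time, in the mean over the 4 times or in its response to bleomycin. The share of all tested genes called was itself small, 0.546% in naive mice, 0.00792% at day 7, 0.135% at day 14, 0.0950% at day 21 and 0.325% in the mean. Unadjusted p was under 0.05 for 1 of the 10 genes in naive mice (H2-Ob), 0 at day 7, 0 at day 14, 3 at day 21 and 0 in the mean. DESeq2 called 1 gene, H2-DMa at day 21 (adjusted p = 0.0181), and limma-voom called 0.

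In naive mice the KO to WT log2 difference was -0.03 for H2-Ab1, -0.04 for H2-Aa, 0.12 for H2-Eb1 and 0.04 for Cd74, with 95% intervals that reached from -1.04 to 1.17. At day 7 the same 4 genes differed by -0.05 to -0.18, within intervals of -1.17 to 0.94. A difference of 1 on the log2 scale either way is therefore within, or close to, what these data allow, and the absence of a call does not show that the genotypes were alike.

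At day 14, 9 of the 10 differences were below 0, with a median of -0.42 against 0.0039 over all tested genes. H2-Eb1 averaged 359 ± 206 CPM in KO mice and 596 ± 268 CPM in WT mice (SD, n = 3 each), a log2 difference of -0.73 with a 95% interval of -1.78 to 0.32 (edgeR adjusted p = 0.691). Its KO mice overlapped its WT mice, as did those of the other genes except H2-Ob, which had 11, 9 and 4 counts in KO libraries and 21, 23 and 51 counts in WT libraries (log2 difference -1.58 ± 0.86, edgeR adjusted p = 0.584). At this time 15.5% of all tested genes had no overlap between the KO and WT mice.

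At day 21 the sign turned, with 9 of 10 differences above 0 and a median of 0.67, against 0.011 over all tested genes. Ciita averaged 52.8 ± 41.1 CPM in KO mice and 18.8 ± 9.92 CPM in WT mice, a log2 difference of 1.48 ± 0.52 (unadjusted p = 0.0105, edgeR adjusted p = 0.32), or 0.65 without KO day 21 mouse 2. H2-Ab1 differed by 0.88 ± 0.47 (edgeR adjusted p = 0.57), or by 0.29 without that mouse. Since the class II genes rank the mice alike, the shared sign of 9 genes is not 9 independent observations.

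H2-DMa came nearest to a call between the genotypes. It had 387, 396 and 294 CPM in day 21 KO mice, against 286, 229 and 189.9 CPM in day 21 WT mice, so that every KO mouse was above every WT mouse, as was so for 7.53% of all tested genes. The log2 difference of H2-DMa was 0.61 ± 0.15 (unadjusted p = 0.000565, edgeR adjusted p = 0.119, or 0.0305 without KO day 21 mouse 3). Its response to bleomycin at day 21 was higher in KO than in WT mice by 0.88, with a 95% interval of 0.43 to 1.33 (edgeR adjusted p = 0.0823, with 0.222% of all tested genes higher). DESeq2 put the adjusted p of that H2-DMa difference in response at 0.00896, and leaving out KO day 21 mouse 3 or WT day 21 mouse 1 put it at 0.0324 and 0.0422 in edgeR. The other 17 of 20 alternative fits, by edgeR or limma-voom, left it uncalled, with an adjusted p of up to 0.269. For KO against WT at day 21, 12 of 14 such fits left H2-DMa uncalled (up to 0.631). The difference in response also includes the naive mice, where KO differed from WT by -0.27 ± 0.15 (edgeR adjusted p = 0.739). Of the other members, 0 had a difference in response called at day 7, 14 or 21 by edgeR, DESeq2 or limma-voom, where edgeR called 0.00792%, 0.332% and 0.332% of all tested genes at those days, and beside H2-DMa an unadjusted p under 0.05 was seen for H2-Ob at day 14 alone.

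**Figure D3:**
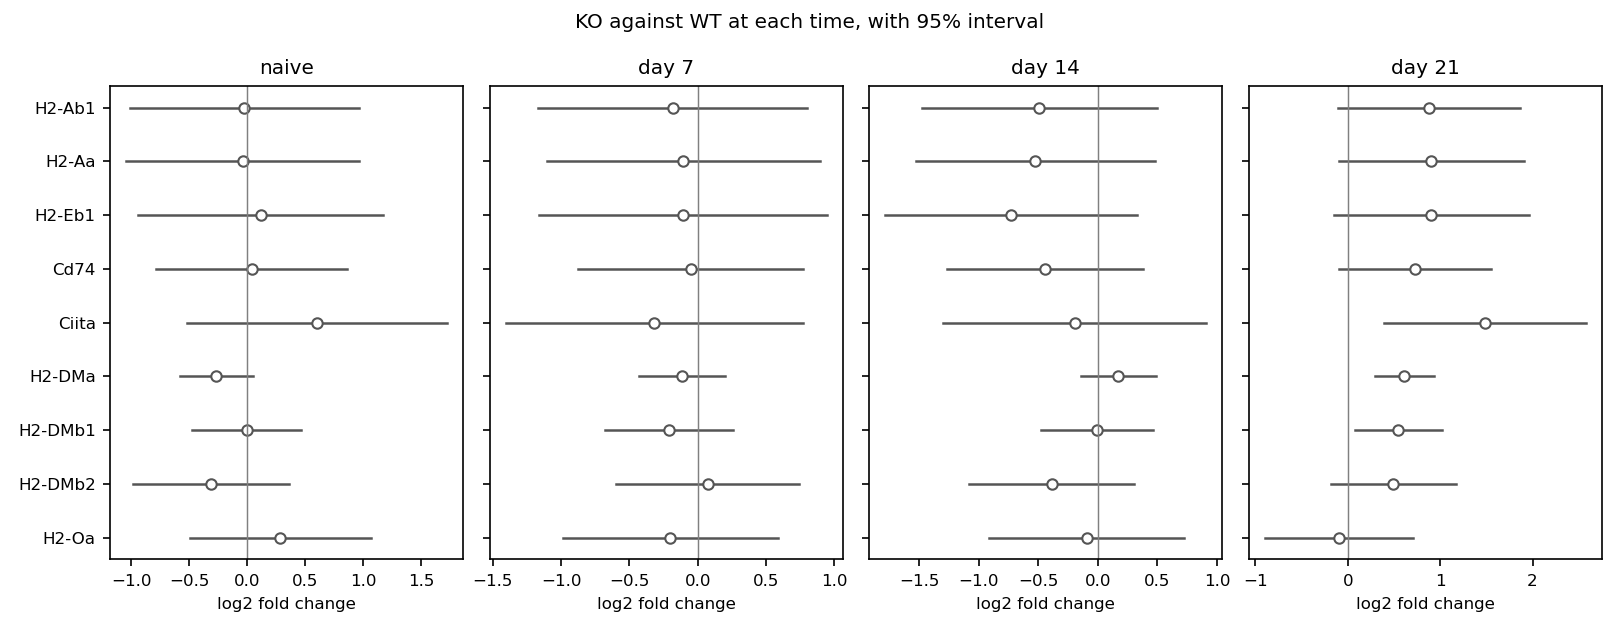
Log2 fold change of KO against WT mice (horizontal axis) with its 95% interval for 9 of the genes in naive mice and at day 7, 14 and 21. H2-Ob is left out because it had 0 counts in naive WT mice. All points are open, since no adjusted p was under 0.05, and the points lie mostly left of 0 at day 14 and right of 0 at day 21.

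The proportions among the genes changed with bleomycin as well as their levels. H2-Eb1 stood at 51.0 to 75.2 counts per 100 H2-Ab1 counts in the 18 bleomycin mice, against 41.8 to 48.0 counts in the 6 naive mice, with no overlap. By group this ratio averaged 46.7 ± 1.59 in naive KO mice, 73.8 ± 1.28 at day 7, 56.8 ± 5.10 at day 14 and 60.1 ± 4.54 at day 21. WT mice averaged 42.4 ± 0.557 when naive, 70.1 ± 0.866 at day 7, 67.9 ± 3.41 at day 14 and 60.7 ± 1.96 at day 21 (SD, n = 3 each). H2-Eb1 counts were thus a larger share of H2-Ab1 counts in every bleomycin mouse than in any naive mouse.

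For H2-DM, the ratio of H2-DMa to H2-DMb1 per kilobase was 0.388 to 0.830 in bleomycin mice, against 0.886 to 1.16 in naive mice, again with no overlap. KO day 21 mouse 1 and KO day 14 mouse 3, both near the naive animals on the first principal component, had the highest ratios after bleomycin, as the values of 0.830, 0.388 and 0.426 in the KO day 21 mice and 0.446, 0.569 and 0.705 in the KO day 14 mice show. H2-DMb2 gave 1.09 to 3.15% of the summed H2-DM beta counts in bleomycin mice and 3.05 to 5.35% in naive mice. In naive mice the H2-DMa to H2-DMb1 and H2-Eb1 to H2-Ab1 ratios also parted the genotypes. H2-DMa over H2-DMb1 was 0.934, 0.886 and 0.890 in the KO mice, against 1.08, 1.01 and 1.16 in the WT mice. H2-Eb1 per 100 H2-Ab1 counts was 47.3, 48.0 and 44.9 in the KO mice, against 41.8, 42.9 and 42.7 in the WT mice. In the same naive mice the genotypes overlapped in H2-Aa per 100 H2-Ab1 counts (91.9 to 103 in KO and 89.8 to 105 in WT mice). They also overlapped in the H2-DMb2 share (3.05 to 4.80% and 4.50 to 5.35%) and in H2-DMa per 100 H2-Aa counts (74.4 to 150 and 78.7 to 179). These ratios were described and not tested. The share of gene ratios that part the genotypes, or bleomycin from naive mice, was not computed.

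**Figure D4:**
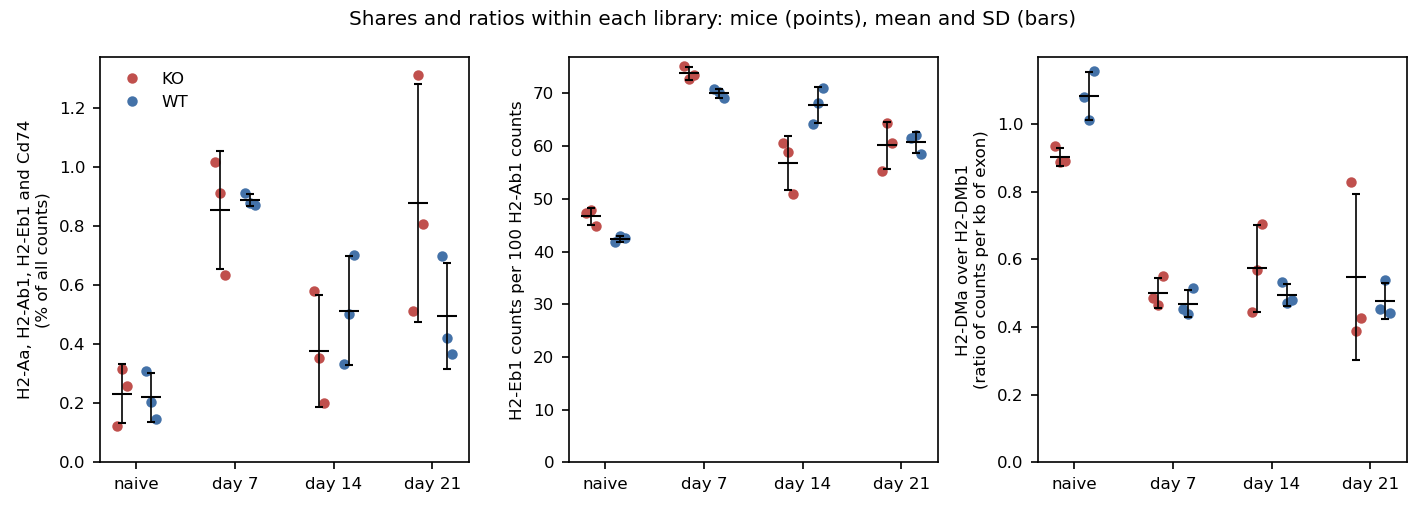
From left to right, the summed share of H2-Aa, H2-Ab1, H2-Eb1 and Cd74 in all counts (%), H2-Eb1 counts per 100 H2-Ab1 counts, and the ratio of H2-DMa to H2-DMb1 per kilobase of exon, in each mouse by time with KO in red left of WT in blue and the mean and SD in black. The middle and right panels separate the 18 bleomycin mice from the 6 naive mice, with H2-Eb1 per 100 H2-Ab1 counts at 51.0 or more after bleomycin and H2-DMa over H2-DMb1 at 0.830 or less.

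Within a group, the mice differed by a shared factor in the main class II genes. H2-Aa, H2-Ab1, H2-Eb1 and Cd74 put the 3 mice in the same order in 8 of 8 groups. Their summed level was 5926, 3577 and 2013 CPM in KO day 14 mice 1, 2 and 3 and 5114, 13908 and 8388 CPM in KO day 21 mice 1, 2 and 3. WT mice had 3512, 5117 and 7560.2 CPM at day 14 and 7475, 4372 and 3915 CPM at day 21. Ciita did not always follow, and in WT naive mouse 1, which had the most class II of its group, Ciita was lowest at 4.47 CPM, against 13.5 and 9.26 CPM in the other naive WT mice.

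**Figure D5:**
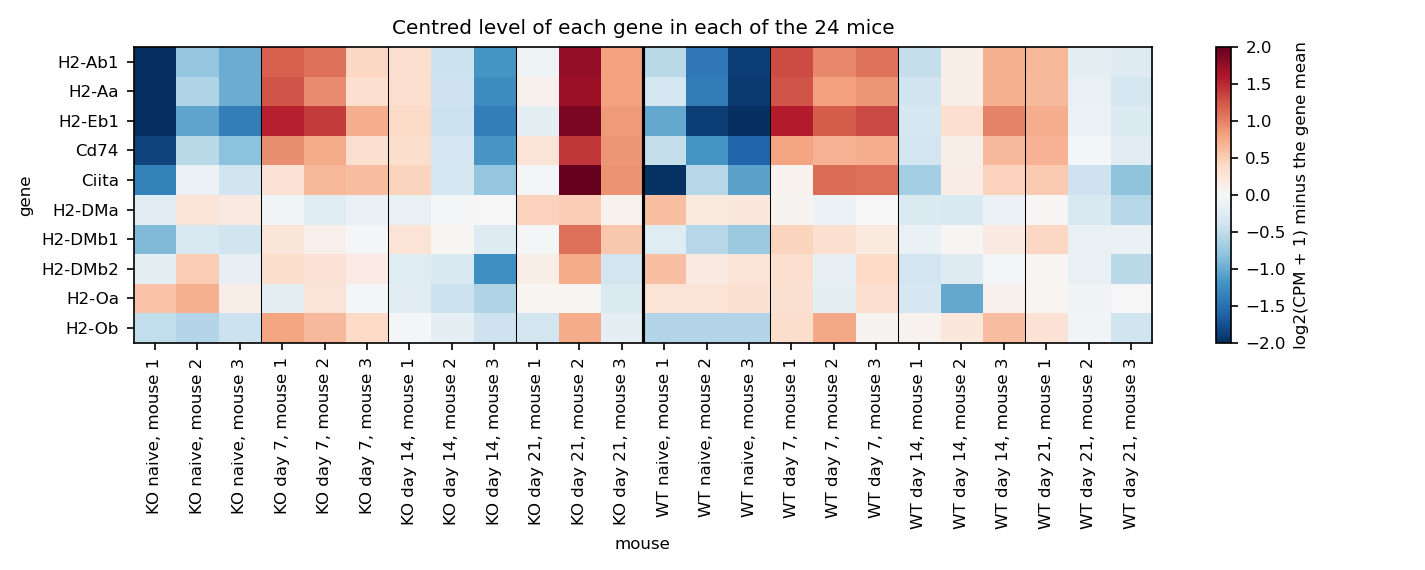
Level of each gene (rows) in each of the 24 mice (columns, KO groups left of WT groups) as log2(CPM + 1) minus the gene's mean over all mice, in red where higher and blue where lower, with the scale ending at 2 either way. The rows of H2-Ab1, H2-Aa, H2-Eb1 and Cd74 share 1 pattern over the mice, which Ciita and H2-DMb1 follow in part, while H2-DMa, H2-DMb2 and H2-Oa do not.

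Markers of other cells also changed with bleomycin, and their part in the rise of the class II genes was not tested. Of 12 tested markers of recruited and interstitial macrophages, 10 rose and 1 fell in KO mice at day 7, and 10 rose and 1 fell in WT mice. At that day 19.7% of all tested genes rose and 14.4% fell in KO mice, and 20.2% rose and 15.3% fell in WT mice. C1qa, a complement subunit, averaged 1148 CPM in day 7 KO mice, against 2.49 CPM in naive KO mice. It averaged 946 CPM in day 7 WT mice, against 2.36 CPM in naive WT mice. Mrc1, the mannose receptor, held 89.7 to 91.9% of that list's sum in naive mice. The other 12 markers summed to 162 to 197 CPM in KO mice when naive, 2934 to 6185 at day 7, 1488 to 4504 at day 14 and 1644 to 6409.5 at day 21. They summed to 183 to 206 CPM in naive WT mice, 4006 to 4846 at day 7, 5128 to 8631 at day 14 and 4449.8 to 4928 at day 21. Their mean sum in WT mice was 4353 CPM at day 7 and 6744 CPM at day 14. The 10 class II genes went the other way, with a mean sum of 9390 and 5900 CPM at these days. At WT day 21 the means were 4737 CPM for the 12 markers and 5757 CPM for the 10 genes, both below day 14. In KO mice the 2 means moved in the same direction. The 12 markers averaged 4685, 2992 and 3941 CPM at KO day 7, 14 and 21. The 10 class II genes averaged 8783, 4367 and 9912 CPM. With Mrc1 the marker sum was 4203 to 7326 CPM in day 7 KO mice, against 1914 to 2019.5 CPM in naive KO mice. In KO day 14 mice 1, 2 and 3 the sum of the 12 was 4504, 2984 and 1488 CPM and in KO day 21 mice 1, 2 and 3 it was 1644, 6409.5 and 3768 CPM, the same order of mice as for the class II genes. The order was also shared at WT day 14 and differed in both naive groups, at day 7 in both genotypes and at WT day 21. Ly6c2, a marker of monocytes, was at 0 in naive WT mice. Of 15 resident macrophage markers, 8 fell and 1 rose in KO mice and 8 fell and 2 rose in WT mice at day 7. They summed to 9428 to 13501 CPM in day 7 KO mice, against 26071 to 28107 CPM in naive KO mice. The same sum was 9768 to 11729 CPM in day 7 WT mice, against 23662 to 30372 CPM in naive WT mice. Chil3 alone held 47.6 to 71.0% of it over the 24 mice. Without Chil3 the other 14 markers summed to 4836 to 5683 CPM in day 7 KO mice, against 8139.7 to 9101 CPM in naive KO mice. For WT mice these 14 summed to 4556 to 5671 CPM at day 7, against 9173 to 10316 CPM in naive mice.

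Markers of dendritic cells, B cells and T cells were followed as well. Of 14 dendritic cell markers, 9 rose and 2 (Batf3 and Wdfy4) fell in KO mice at day 7, and 11 rose and the same 2 fell in WT mice. The shares of all tested genes were 19.7% up and 14.4% down in KO mice, and 20.2% up and 15.3% down in WT mice. Wdfy4 alone held 84.0 to 99.35% of that list's sum and was present in every group. Without it the other 13 markers summed to 5.58 to 6.86 CPM in KO mice when naive, 28.7 to 38.9 at day 7, 6.82 to 33.0 at day 14 and 9.26 to 59.9 at day 21. The sums were 3.22 to 5.07 CPM in naive WT mice, 30.7 to 35.8 at day 7, 24.2 to 52.3 at day 14 and 33.4 to 46.6 at day 21. These 13 followed the class II order in the later KO mice, at 33.0, 8.22 and 6.82 CPM in day 14 mice 1, 2 and 3 and 9.26, 59.9 and 23.7 CPM in day 21 mice 1, 2 and 3. WT day 14 shared the class II order too, whereas both naive groups, both day 7 groups and WT day 21 had another order. Flt3, a receptor of dendritic cells and their precursors, averaged 1.63 CPM in day 7 KO mice, against 0.0153 CPM in naive KO mice. It averaged 2.03 CPM in day 7 WT mice, against 0.0360 CPM in naive WT mice.

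B cells also carry class II and H2-DO. Cd79a, Pax5, Ebf1, Blk, Cr2 and Fcmr were at 0 in both naive groups, and without Cd22, which alone held 95.2 to 99.9% of the sum, the other B cell markers in the table summed to 0.856 to 1.79 CPM in KO and 1.16 to 1.40 CPM in WT mice at day 7, against 0.161 to 0.435 CPM in naive KO and 0.257 to 0.505 CPM in naive WT mice. Of 7 tested B cell markers, 3 (Blk, Cd79a and Cd79b) rose and 1 (Cd22) fell in KO mice at day 7, and 2 (Blk and Cd79b) rose and 1 (Cd22) fell in WT mice. Of 9 tested T and NK cell markers, 7 rose and 1 (Cd2) fell in KO mice, and 8 rose and 1 (Cd2) fell in WT mice. Beside both lists, 19.7% of all tested genes rose and 14.4% fell in KO mice, and 20.2% rose and 15.3% fell in WT mice. Cd3e, a chain of the T cell receptor complex, averaged 3.61 CPM in day 7 KO mice, against 0.0154 CPM in naive KO mice, and 4.89 CPM in day 7 WT mice, against 0 CPM in naive WT mice. Of these calls, that of Blk in either genotype was lost without any 1 naive mouse. At day 21 the B cell markers other than Cd22 summed to 0.812, 10.2 and 2.46 CPM in KO mice 1, 2 and 3, against 6.02, 3.60 and 2.63 CPM in WT mice 1, 2 and 3. The T and NK cell markers other than Cd2, which held 46.0 to 99.8% of its list's sum, came to 6.39, 52.2 and 14.8 CPM in these KO mice, against 20.8, 17.6 and 14.7 CPM in the WT mice. KO day 21 mouse 2 had the most class II of all 24 mice. It was also the highest of the 24 in the B cell, T and NK cell and dendritic cell sums without Cd22, Cd2 and Wdfy4. With these 3 genes its sums were 211, 96.8 and 374 CPM. None of those was the highest of the 24, and the T and NK cell sum was the lowest. Its neutrophil marker sum was the highest of the 24, at 147 CPM. The part of these cells in its class II level was not tested. Some of these marker genes lay outside the rule for named genes and are named after their values were seen. In the comparison of KO with WT mice, none of the dendritic cell, B cell, T and NK cell or recruited macrophage markers was called by edgeR at any time.

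A list of proteases and the thiol reductase that prepare peptides mostly rose in both genotypes. Its 10 genes also include Cst3, an inhibitor of cysteine cathepsins, and Asah1, a ceramidase. In KO mice 9 of the 10 rose and 0 fell at day 7, 10 rose at day 14 and 9 rose at day 21. In WT mice 9 rose at day 7, 10 at day 14 and 10 at day 21, with 0 falling in either genotype. Over all tested genes, 19.7%, 12.0% and 15.0% rose in KO mice at these days, and 20.2%, 18.7% and 18.8% in WT mice. The shares that fell were 14.4%, 4.84% and 6.89% in KO mice and 15.3%, 13.4% and 13.7% in WT mice. Lgmn, an asparaginyl endopeptidase, rose by 2.19 on the log2 scale in KO mice (edgeR adjusted p = 1.52e-06) and by 1.89 in WT mice (edgeR adjusted p = 8.33e-06) at day 7. Ctss, a cathepsin that can cleave the invariant chain, rose by 0.73 in KO and 0.58 in WT mice at day 7 (edgeR adjusted p = 0.00103 and 0.00603). At day 14 it rose by 1.03 in KO and 1.25 in WT mice (edgeR adjusted p = 8.26e-05 and 5.36e-06). Unlike the class II genes, Ctss was therefore called in KO mice at day 14, where its level averaged 7704 ± 1384 CPM, against 3782 ± 234 CPM in naive KO mice (SD, n = 3 each). Ifi30, the lysosomal thiol reductase, rose by 0.95 in KO mice and 0.81 in WT mice at day 7, Ctsb by 1.38 and 1.24 and Ctsh by 0.71 and 0.73, with edgeR adjusted p of at most 0.000281.

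Among upstream regulators, 17 genes were followed. They are of the RFX, NF-Y and CREB complexes and of interferon gamma signalling, with the transcription factors Spi1, Irf4 and Irf8 listed beside them. Of the 17, 7 rose and 1 (Spi1) fell in KO mice at day 7, where 19.7% of all tested genes rose and 14.4% fell. In WT mice 8 rose and 1 (Spi1) fell, where 20.2% of all tested genes rose and 15.3% fell. Irf4, a transcription factor of the interferon regulatory family, rose by 1.99 in KO and 1.91 in WT mice (edgeR adjusted p = 1.45e-05 and 2.22e-05). Jak2, a kinase of the interferon gamma receptor, rose by 0.49 in KO and 0.86 in WT mice (edgeR adjusted p = 0.00727 and 5.78e-05). The receptor chain Ifngr2 rose by 0.69 and 0.51, while Ifngr1 had log2 fold changes of -0.16 in KO and -0.22 in WT mice and was not called. Rfx5, the DNA-binding subunit of RFX, was not called at day 7, with -0.29 in KO and -0.07 in WT mice. Rfxap, another RFX subunit and named after its value was seen, was the one gene of this list called between the genotypes, lower in naive KO than in naive WT mice by a log2 difference of -0.50 (edgeR adjusted p = 0.0445). This call was lost without any 1 of the 6 naive mice (edgeR adjusted p of up to 0.268), with mouse number as block, with no expression filter and in a fit of the naive groups alone.

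Genes that interferon gamma induces rose with the class II genes. Of 12 tested, a list that includes Ciita, 9 rose and 0 fell in KO mice at day 7 and 11 rose and 0 fell in WT mice, with list medians of 1.415 in KO and 1.858 in WT mice, against 0.022 over all tested genes in each. Of all tested genes, 19.7% rose and 14.4% fell in KO mice at that day, and 20.2% rose and 15.3% fell in WT mice. Cxcl10, a chemokine for T cells, rose by 2.85 in KO and 2.60 in WT mice (edgeR adjusted p = 3.06e-07 and 1.02e-06), and Gbp3, a guanylate-binding protein, by 2.46 and 2.65 (edgeR adjusted p = 1.05e-05 and 5.03e-06). The immunity-related GTPases Irgm1 and Igtp rose by 1.58 and 0.80 in KO mice and by 1.66 and 1.13 in WT mice. At day 14, 7 rose in KO mice and 10 in WT mice, and at day 21, 9 rose in KO mice and 7 in WT mice, with 0 falling. Over all tested genes, 12.0% rose in KO and 18.7% in WT mice at day 14, and 15.0% and 18.8% at day 21. At day 14 in KO mice, Cxcl10 rose by 1.15 (edgeR adjusted p = 0.00763, or 0.0763 without KO day 14 mouse 1) while Ciita had a log2 fold change of 0.42 ± 0.52 (edgeR adjusted p = 0.65).

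Neighbours of the class II genes in the MHC behaved likewise at day 7. Of 6 tested, 4 (Tap1, Psmb8, Psmb9 and H2-Eb2) rose in each genotype and 0 fell. Of all tested genes, 19.7% rose and 14.4% fell in KO mice, and 20.2% rose and 15.3% fell in WT mice. Tap1, a peptide transporter of the class I pathway, rose by 1.40 in KO and 1.60 in WT mice (edgeR adjusted p = 4.16e-06 and 9.92e-07). The immunoproteasome subunits Psmb9 and Psmb8 rose by 0.59 and 0.52 in KO mice and by 0.67 and 0.56 in WT mice (edgeR adjusted p of at most 0.00775). H2-Eb2, a second E beta gene, was at 0 in both naive groups and averaged 0.293 CPM in day 7 KO mice and 0.305 CPM in day 7 WT mice. H2-Ea-ps, the E alpha entry of this list, was at 0 in each of the 8 groups. The rise of H2-Eb1 RNA therefore does not show more assembled I-E.

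Genes for the life of class II at the cell surface went both ways at day 7, when 19.7% of all tested genes rose and 14.4% fell in KO mice and 20.2% rose and 15.3% fell in WT mice. Of 13 tested for turnover and sorting, 5 (Ap2m1, Arl8b, Cd63, March1 and Rab7) rose and 3 (Cd82, Cd83 and Cd9) fell in KO mice, and 4 (Arl8b, Cd63, March1 and Rab7) rose and the same 3 fell in WT mice. March1 (now Marchf1), the ubiquitin ligase that removes class II from the surface, rose by 0.36 in KO and 0.56 in WT mice (edgeR adjusted p = 0.0247 and 0.00123). The KO call of March1 was lost without KO naive mouse 1 or 2 or KO day 7 mouse 2 or 3 (edgeR adjusted p of up to 0.085), and the WT call in a fit of these 2 groups alone (edgeR adjusted p = 0.0523). The tetraspanin Cd63 rose by 1.27 in KO and 1.84 in WT mice (edgeR adjusted p = 0.000673 and 1.84e-05), whereas the tetraspanins Cd9 and Cd82 had log2 fold changes of -0.83 and -0.93 in KO mice and -0.83 and -0.60 in WT mice (edgeR adjusted p of at most 0.000681).

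Ligands that act beside class II on T cells went both ways too. Of 7 tested, 3 (Cd40, Cd86 and Tnfsf9) rose and 1 (Cd274) fell at day 7 in each genotype. Of all tested genes, 19.7% rose and 14.4% fell in KO mice then, and 20.2% rose and 15.3% fell in WT mice. Cd86, a ligand of CD28, averaged 35.3 ± 2.89 CPM in day 7 KO mice, against 8.67 ± 1.08 CPM in naive KO mice. WT mice averaged 36.7 ± 3.38 CPM at day 7, against 7.26 ± 2.08 CPM in naive WT mice (SD, n = 3 each). Its log2 rise was 2.02 in KO and 2.35 in WT mice (edgeR adjusted p = 1.19e-05 and 2.72e-06). Cd274, which encodes the inhibitory ligand PD-L1, fell by 0.76 in KO and by 0.46 in WT mice (edgeR adjusted p = 0.000141 and 0.0095). At day 14 the KO mice kept a called rise of Cd86 (1.34, edgeR adjusted p = 0.00174) beside 2.52 in WT mice (edgeR adjusted p = 1.31e-06). Between KO and WT mice, 0 genes of the protease, turnover, costimulatory, interferon-induced and neighbouring-gene lists were called by edgeR at any of the 4 times or in their mean.

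Beyond these lists, the genes whose profile over the 24 mice lay nearest to the mean of H2-Aa, H2-Ab1, H2-Eb1 and Cd74 were Emb, Ptpn18, Arl4c, Limd2, Rgs10 and Rassf2. Likeness was the root mean square difference of centred log2(CPM + 1), over 9656 other genes with at least 5 CPM in their highest group, and it was 0.40 for Emb and 0.48 for Rassf2, against 1.03 for a flat line. This is a description, and all mice share the contrast of bleomycin with naive. Emb, which encodes the membrane glycoprotein embigin, averaged 241 ± 2.04 CPM in day 7 KO mice, against 49.8 ± 25.3 CPM in naive KO mice. WT mice averaged 246 ± 19.8 CPM at day 7, against 68.3 ± 20.1 CPM in naive WT mice (SD, n = 3 each). On the same measure Ciita was at 0.60, which would rank 69 among those genes, H2-DMb1 at 0.66, H2-Ob at 0.69, H2-DMb2 at 0.98, H2-DMa at 1.08 and H2-Oa at 1.16, so that the last 2 lay farther from the class II profile than the flat line.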

How the data were processed

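RNA was sequenced in 2 runs for each of 24 mice (48 runs), and the table of the whole series holds 1 column per mouse used here; whether that column adds up both runs is not stated. The authors' deposited values are expected counts per gene, unnormalized, and 24 further columns of per-sample values were not used. The submitters' processing notes name mm10, bcl2fastq, DESeq2 1.42.0 and limma 3.58.1; no aligner, counter or strand setting is given in the sources used here. Values were rounded to whole counts. Genes were kept with edgeR's filter (minimum count 10, minimum total 15), libraries scaled by TMM, and the 8 groups fitted in 1 quasi-likelihood model (edgeR 4.0.16, R 4.3.3; 16 residual degrees of freedom, common biological coefficient of variation 0.21), with Benjamini-Hochberg adjustment over 12634 genes at 0.05. Replicates are mice numbered in the labels, and p-values measure the spread between them. CPM per kb divides by the union of GENCODE M21 exons (mm10), and intervals are 95%. The fit was tested on simulated data. For counts of 0, 3 counts over the group set the bound, which covers counting error only.

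The members and lists were chosen with earlier results of these data known. Of each list other than the members, up to 4 genes with the smallest p in the mean KO to WT comparison or at WT day 7 were named, with Rfx5, Ctss, Cd86, Ifngr1, March1 and Flt3; some items are not reported here. Epithelial and neutrophil markers were tabulated as well: of 10 and 6 tested, 1 and 3 rose and 1 and 0 fell in KO mice at day 7, and 6 and 3 rose and 1 and 1 fell in WT mice. Over all tested genes, 19.7% rose and 14.4% fell in KO mice, and 20.2% rose and 15.3% fell in WT mice. Alternatives were DESeq2 1.42.0, limma-voom 3.58.1, RLE size factors, no filter, only the groups compared, mouse number as block, H2-DMb1 and H2-DMb2 summed, Rn45s left out, and each mouse left out.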

Additional observations from a re-analysis of the deposited data

How the results depend on the processing

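Fold changes were recomputed for all 10 genes against naive at each day and between KO and WT mice at days 14 and 21, and for 1 to 4 genes in the naive and day 7 KO to WT comparisons, the day 7 and 21 responses and KO day 21 against day 7. Of these values, 1173 kept their direction and their side of the threshold, 41 lost a call, 21 gained one and 32 changed sign. Elsewhere the counts of calls alone were recomputed. The 7 calls at WT day 7 held throughout. With mouse number as replicate block, the number of genes called was 7, 6 and 5 at WT day 7, 14 and 21 and 6, 1 and 7 in KO mice, as without it. Of 84 same-numbered pairs, 18 had deviations with r over 0.1 (median -0.003, lowest -0.64, highest 0.60). The numbers were not taken to pair mice of different groups, and handling shared by some groups was not tested. DESeq2 called 1 gene for KO against WT at day 21 and 1 for the response at day 21. A fit of only the groups compared called 7 at KO day 7, 9 at WT day 14, 4 at KO day 21 (H2-Ob was not tested in it), 3 between WT day 21 and day 7, and 0 between KO day 21 and day 7. Leaving out 1 mouse gave 3 to 7 calls at WT day 14, 2 to 7 at WT day 21, 0 to 1 at KO day 14, 5 to 7 at KO day 21, 0 to 1 for KO against WT at day 21, 0 to 1 for the response at day 21 and 0 to 1 between KO day 21 and day 7.

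Signs that turned belonged to values that were not called. Without 1 mouse, KO against WT in naive mice ranged over -0.30 to 0.44 for H2-Ab1, -0.38 to 0.53 for H2-Aa, -0.19 to 0.57 for H2-Eb1 and -0.24 to 0.40 for Cd74, with 0.028 for H2-Ab1 and 0.051 for H2-Aa under the replicate block. At day 7 the ranges were -0.33 to 0.024 for H2-Ab1, -0.32 to 0.11 for H2-Aa, -0.27 to 0.10 for H2-Eb1 and -0.19 to 0.11 for Cd74. KO against WT at day 14 ranged over -0.63 to 0.083 for Ciita, -0.15 to 0.12 for H2-DMb1 and -0.49 to 0.44 for H2-Oa, and limma-voom gave 0.027 for H2-Oa. Likewise KO against WT at day 21 ranged over -0.19 to 0.056 for H2-Oa and -0.99 to 1.14 for H2-Ob, WT day 7 ranged over -0.30 to 0.012 for H2-DMb2, -0.30 to 0.066 for H2-Oa, -0.13 to 0.31 for Cxcr2 and -0.33 to 0.14 for Rfx5, KO day 14 -0.012 to 0.71 for Ciita and KO day 21 -0.22 to 0.48 for H2-DMb2. The cause was not tested. Over all genes, DESeq2 called 143 for KO against WT at day 14 and 132 at day 21, against 17 and 12 by edgeR. H2-Ob and H2-Oa rest on few counts.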
